A study of Mus musculus with 2 samples.

Results

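The 45 genes described here encode transcription factors of the homeobox and PAX classes that pattern organs in the embryo. They were chosen by gene symbol from the GENCODE M21 annotation of mm10, out of 21938 protein-coding genes, and fall into 8 families named Dlx, Irx, Lhx, Nkx, Pax, Pitx, Otx and sine oculis (Six2 to Six6). The Hox clusters were left out. For each gene the open sites of the urinary bladder were read in its domain, the gene body with 20 kb on either side.

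The data are DNase-seq profiles of whole urinary bladder from 2 female B6CASTF1/J mice aged 36 days, with 1 library per animal. B6CASTF1/J is the first-generation cross of C57BL/6J with the wild-derived strain CAST/EiJ. In DNase-seq, nuclei are cut lightly with deoxyribonuclease I, so that cuts gather where DNA is not covered by nucleosomes. The animals carry the numbers 5 and 6 in the labels and are called replicate 1 and replicate 2. They form 1 untreated group with no control, so every comparison below is between genes or between the animals, errors are SDs over both animals (n = 2), and no p-value was computed.

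Homeodomain proteins bind short AT-rich sites, and PAX proteins bind through a paired domain that some of them combine with a homeodomain. Their genes are switched on in restricted regions of the embryo, where they fix the identity of neurons, kidney, limb, jaw, gut or muscle. In tissues that do not use them, many such genes lie in long CpG-rich domains held silent by Polycomb complexes. Some keep an adult role, as Pax5 does in B lymphocytes and Nkx6-1 in pancreatic beta cells.

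The tissue label was checked against marker genes. The promoter window ran from 1 kb before to 1 kb after the most upstream start of a gene in the annotation, and a promoter peak is one that touches it by at least 1 bp. Such a peak was present in both animals at 12 of 12 urothelial, 7 of 8 smooth muscle and 5 of 5 fibroblast markers. It was present at 4 of 8 neuronal, 2 of 4 glial, 2 of 5 skeletal muscle and 0 of 6 kidney markers. Over all protein-coding genes the share was 62.1%. It was 44.7% among promoters that were not CpG-rich (defined below), as most of these markers were. The neuronal, glial and skeletal muscle counts lay near 44.7% and do not tell whether those cell types were present. The larger peak lists of the animals held 117773 and 102671 peaks. Peak height is the authors' signal for a peak, whose scaling is not given in the sources used here. The heights moved in steps of 0.00789 and 0.00849, which would stand for 127 and 118 M reads if they are reads per M mapped. In bulk tissue a low peak can come from few cells of a type or from little signal per cell, and these cannot be told apart.

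The sequences under the open sites show what the values below rest on. Capitals in the first set mark a match to the CTCF core motif, the site of the factor that anchors chromatin loops. These stretches lie in tall distal peaks of genes whose own promoters were low or without a peak, and a footprint, a stretch protected from cutting, overlapped the match in both animals. A second match in the Nkx2-3 peak, chr19:43631106-43631165 with its surroundings, had no footprint in either animal and is not printed. Capitals in the second set mark bases under a footprint in both animals at the 4 highest promoters among the 45 genes. All sequence is GRCm38 from RefSeq, written 5′ to 3′ in the strand given, and none overlaps an annotated untranslated region.
Nkx2-3, peak centre at +18756 bp from its start, chr19:43631031-43631090, plus strand: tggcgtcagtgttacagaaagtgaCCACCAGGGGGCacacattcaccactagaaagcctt
Dlx3, peak centre at -13078 bp from its start, chr11:95107010-95107069, minus strand: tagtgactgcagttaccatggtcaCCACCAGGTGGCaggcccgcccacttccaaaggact
Nkx2-1, peak centre at -4353 bp from its start, chr12:56541259-56541318, minus strand: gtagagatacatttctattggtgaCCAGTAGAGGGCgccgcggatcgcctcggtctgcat
Six5 promoter, chr7:19093901-19094200, plus strand: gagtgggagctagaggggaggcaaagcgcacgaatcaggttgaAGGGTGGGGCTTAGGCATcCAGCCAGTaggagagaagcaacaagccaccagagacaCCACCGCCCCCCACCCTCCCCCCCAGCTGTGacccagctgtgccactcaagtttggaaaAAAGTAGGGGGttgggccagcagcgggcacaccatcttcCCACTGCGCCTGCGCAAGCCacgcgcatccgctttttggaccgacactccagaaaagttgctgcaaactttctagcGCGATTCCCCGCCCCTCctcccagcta
Pitx3 promoter, chr19:46148441-46148660, minus strand: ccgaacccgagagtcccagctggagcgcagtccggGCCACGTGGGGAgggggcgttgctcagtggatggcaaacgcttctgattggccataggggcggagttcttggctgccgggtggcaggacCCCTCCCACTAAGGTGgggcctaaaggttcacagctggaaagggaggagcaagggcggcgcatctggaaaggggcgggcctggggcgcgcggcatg
Lhx3 promoter, chr2:26208290-26208380, minus strand: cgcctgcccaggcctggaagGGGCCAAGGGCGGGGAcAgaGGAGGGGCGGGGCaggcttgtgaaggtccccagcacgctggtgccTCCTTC
Six4 promoter, chr12:73113457-73113600, minus strand: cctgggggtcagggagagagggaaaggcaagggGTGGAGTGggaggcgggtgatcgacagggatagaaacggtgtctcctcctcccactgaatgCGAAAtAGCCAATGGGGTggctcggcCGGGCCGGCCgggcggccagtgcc
The footprinted capitals held a GC box (GGGCGG on either strand) at Six5 and Lhx3, an E-box (CACGTG) at Pitx3 and a CCAAT box (searched as ATTGG on both strands) at Six4. A match is a run of letters and not evidence that a factor was bound.

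Fewer of these genes had an open promoter than protein-coding genes in general. A promoter peak was found in both animals, here called open, at 19 of the 45 genes (42.2%), compared with 62.1% of all protein-coding genes. Replicate 1 had one at 23 genes (51.1%, against 64.5% of all genes) and replicate 2 at 24 (53.3%, against 63.5% of all genes). The animals thus gave similar totals, and the gap to all genes was smaller in each animal than in both together. The genes concerned were not always the same, and open does not require the peaks of the animals to overlap. Dlx2, Nkx2-2, Pax3 and Pax7 had a promoter peak in replicate 1 alone, Dlx1, Lhx1, Lhx9, Nkx2-3 and Pax5 in replicate 2 alone, and 17 genes had none in either animal. Over all genes the share in both animals was near that in each, so peaks in 1 animal alone made up part of the gap. The shares of all genes with a peak in 1 animal alone, or in neither, were not counted. With the smaller of the authors' peak lists 10 genes (22.2%) were open, against 57.5% of all genes, and with the higher 50% of the peaks 12 (26.7%), against 55.7%.

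Where a promoter peak existed it was low. Its median height over the genes that had one was 1.19 in replicate 1 and 0.837 in replicate 2 (1.01 ± 0.25), against 4.79 and 3.53 for all protein-coding genes. Of the 17 genes with a promoter peak and distal peaks in both animals, 12 (70.6%) had a promoter higher than their median distal peak in both, and among all genes 83.0% did. Both groups of genes passed through their peak calls, so these heights say nothing of the genes without a peak. The plot of promoter heights shows that only Six5 stood above the all-gene median in both animals.

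**Figure D1:**
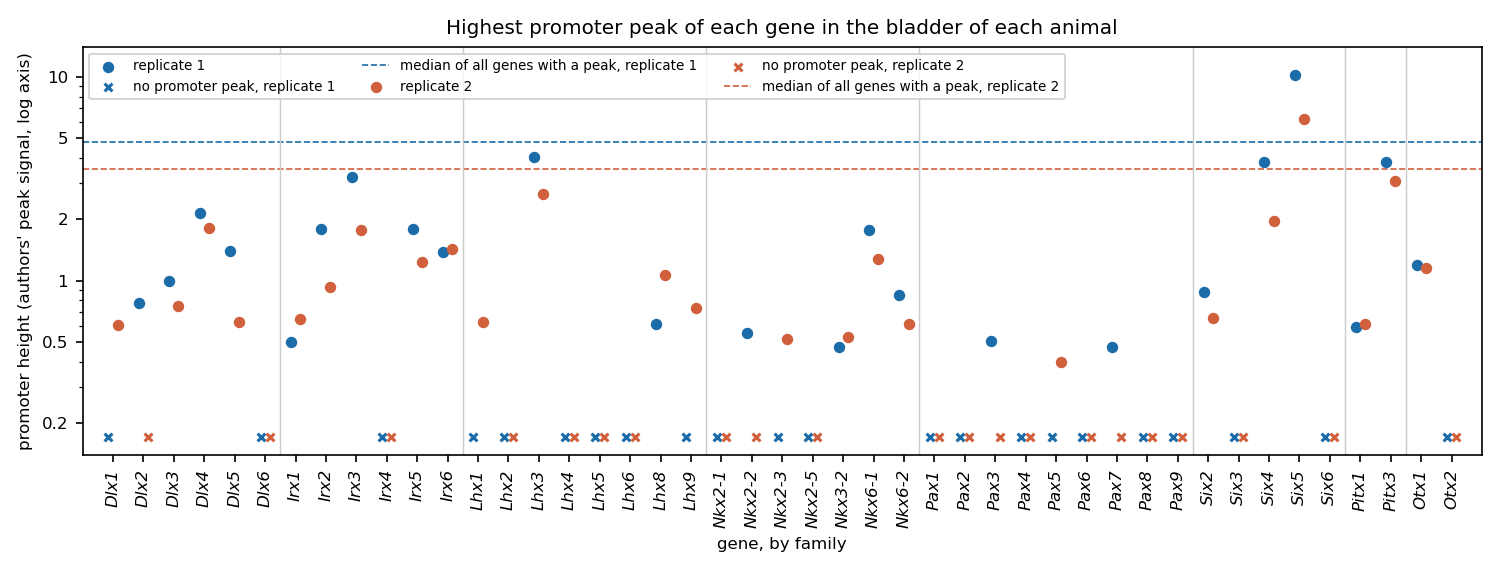
Height of the highest promoter peak of each of the 45 genes (authors' peak signal, log axis), grouped by family, with replicate 1 in blue and replicate 2 in orange. Crosses mark genes with no promoter peak, and the dashed lines are the medians of all protein-coding genes with a peak, 4.79 and 3.53. Six5, at 10.2 and 6.20, is above both lines.

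The gap was wider among CpG-rich promoters. Of the 25 genes with a CpG-rich promoter, defined by an observed over expected CpG ratio of at least 0.6 over the 2 kb window, 13 (52.0%) had a promoter peak in both animals, compared with 96.0% of CpG-rich promoters of all genes. Of the other 20 genes, 6 had one, against 44.7% of the other promoters of all genes. The gap depended on the ratio chosen. At a ratio of at least 0.5 it was 18 of 39 genes (46.2%) against 94.5%, and at 0.7 it was 10 of 12 (83.3%) against 96.9%. Promoters between the limits included Dlx3, Dlx4 and Dlx5, with ratios of 0.58, 0.58 and 0.59.

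The gap over all 45 genes also depended on which start was counted, while a gap remained among CpG-rich promoters. When a peak at any annotated transcript start of a gene was counted, 29 of the 45 genes (64.4%) were open in both animals, near the 66.8% of all protein-coding genes. The 10 genes added in this way were Dlx1, Lhx1, Lhx2, Lhx4, Lhx9, Nkx2-2, Otx2, Pax5, Pax6 and Pax9. This count does not require the same start or site in both animals. For Nkx2-2 the peak was centred at -706 bp in replicate 1 and at +8459 bp in replicate 2. None of the inner-start peaks of Otx2 overlapped a peak of the other animal. Among the CpG-rich class 84.0% in replicate 1 and 72.0% in replicate 2 had a peak at any start, against 97.4% and 97.3% of all such genes. The other class had 60.0% in each animal, against 54.5% and 53.2%. The number of annotated starts differs between genes, from 1 for Dlx3 and Six5 to 24 for Pax6, the regulator of eye and islet development. The inner-start peak of Pax9, a regulator of the pharyngeal pouches, vertebrae and teeth, was tall, at 3.28 and 2.75. That of Lhx1, a regulator of kidney and head formation, reached 4.89 and 3.41. No peak lay at any start in either animal for 11 genes, which were Dlx6, Irx4, Lhx5, Nkx2-1, Nkx2-5, Pax1, Pax2, Pax4, Pax8, Six3 and Six6. By animal, 73.3% and 66.7% of the 45 genes had a peak at any start, near the 69.0% and 68.1% of all genes. Such absence was thus not particular to the set, and the share of all genes without one in either animal was not counted.

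The families differed in how many promoters were open in both animals. Irx had 5 of 6, Pitx 2 of 2, Six2 to Six6 3 of 5, Dlx 3 of 6, Otx 1 of 2, Nkx 3 of 7, Lhx 2 of 8 and Pax 0 of 9. These counts are small and were not tested against each other. Over all protein-coding genes 62.1% were open, and 96.0% of those with a CpG-rich promoter. The CpG-rich promoters numbered 5 of 6 in Irx, 1 of 2 in Pitx and 3 of 5 in Six2 to Six6. Dlx had 2 of 6 such promoters, Otx 2 of 2, Nkx 4 of 7, Lhx 4 of 8 and Pax 4 of 9. Counting any start moved Lhx to 6 of 8 and Pax to 3 of 9, beside 66.8% of all genes.

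The highest promoter of the set was that of Six5. Proteins of its family are homeodomain factors that work with Eya and Dach cofactors. Six5 (ENSMUSG00000040841.5, chr7:19094594-19098549) had a promoter height of 10.2 in replicate 1 and 6.20 in replicate 2 (8.21 ± 2.84), in a peak centred at -503 and -493 bp from its start. Its distal density, the number of peaks outside its own promoter per 10 kb of domain, was 2.86 and 2.62 (2.74 ± 0.17), the highest of its family. Of its distal peaks, 11 of 12 in replicate 1 and 10 of 11 in replicate 2 touched the start windows of other genes, so this density belongs in large part to its neighbours. Six4 (ENSMUSG00000034460.9, chr12:73099609-73113456), from the same subgroup as Six5 and active in muscle development, had heights of 3.81 and 1.95 (2.88 ± 1.31) directly at its start. Six2, which maintains nephron progenitors in the kidney, was low at 0.876 and 0.654, and the highest promoter peak was centred at -77 bp from the start in replicate 1 and at -897 bp in replicate 2. Six3 and Six6, regulators of forebrain and eye, had no promoter peak, and the domain of Six6 held 0 peaks in both animals.

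Both Pitx genes had a promoter peak in each animal. Pitx3 (ENSMUSG00000025229.15, chr19:46135685-46148326), a regulator of lens and midbrain dopamine neurons, had promoter heights of 3.81 and 3.09 (3.45 ± 0.51), the second highest mean of the set. It had 7 distal peaks in each animal (density 1.38 in both), of which 6 and 7 were shared with the other animal. Its tallest distal peak outside the start windows of other genes lay in exon sequence just past its end, chr19:46135361-46135540, at 4.98 and 3.47. Pitx1 (ENSMUSG00000021506.7, chr13:55825051-55836192), a regulator of hindlimb and pituitary, had a low promoter, 0.592 and 0.611, with 13 and 11 distal peaks around it. Its promoter peaks, centred 113 bp into the gene in replicate 1 and 361 bp in replicate 2, did not overlap between the animals. The distal density of Pitx1, 2.65 and 2.24, was the higher of this pair. The order of Pitx1 and Pitx3 by promoter height was thus the reverse of their order by distal density, in both animals.

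The Irx family had the most open promoters and few distal peaks. Iroquois proteins act in the patterning of heart, limb, lung and neural tissue. Irx3 (ENSMUSG00000031734.13, chr8:91798525-91802067), which acts in the heart and limb, had heights of 3.24 and 1.77 (2.50 ± 1.04) at its start. Irx5 (ENSMUSG00000031737.11, chr8:92357625-92376286), which shapes the electrical gradient of the heart, had 1.80 and 1.23 (1.52 ± 0.40). Irx2 had 1.78 and 0.926, and Irx6 had 1.38 and 1.44, in a peak centred at -587 and -637 bp from its start. Irx1 was low, at 0.497 and 0.646, and Irx4, a regulator of the heart ventricle, had no promoter peak. Irx6 had 0 distal peaks in either animal, the lowest density of the family, while Irx5 had 2 in replicate 1 and 15 in replicate 2 (densities 0.353 and 2.65), the highest mean. The tallest peak in the Irx5 domain, 8.68 and 6.29, lay at the start of another gene, centred at -1414 and -1514 bp from that of Irx5.

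Dlx genes, homologues of Distal-less, shape jaw, limb and forebrain and lie in convergent pairs. In the Dlx3 and Dlx4 pair on chromosome 11 both promoters were open. Dlx4 (ENSMUSG00000020871.8, chr11:95140447-95146263) had 2.14 and 1.82 (1.98 ± 0.23), and Dlx3, which acts in epidermis, hair and teeth, had 0.995 and 0.747. In the Dlx5 and Dlx6 pair on chromosome 6, the regulators of jaw and limb skeleton, only Dlx5 was open, at 1.39 and 0.629, and it had the lowest distal density of the family, 0.237 in both animals. In the Dlx1 and Dlx2 pair on chromosome 2, which acts in forebrain interneurons, the calls crossed. Dlx1 had a promoter peak of 0.603 in replicate 2 alone, and Dlx2 had one of 0.774 in replicate 1 alone. Dlx2 also had the highest mean distal density of the family, from 3 distal peaks in replicate 1 and 15 in replicate 2 (0.726 and 3.63 per 10 kb). Of these, 1 in replicate 1 and 8 in replicate 2 lay at annotated starts of Dlx1, and 4 of those in replicate 2 were its promoter peaks. This density thus belongs in part to Dlx1.

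Among the LIM-homeodomain genes, Lhx3 and Lhx8 had open promoters in both animals. Lhx3 (ENSMUSG00000026934.15, chr2:26200212-26208289), a regulator of pituitary and motor neurons, had heights of 4.03 and 2.65 (3.34 ± 0.98) at its start, in a promoter with a CpG ratio of 0.25. Lhx8, known for cholinergic neurons, teeth and oocytes, had 0.616 and 1.06, in peaks centred 938 and 988 bp into the gene. Lower Lhx8 peaks nearer the start, of 0.466 in replicate 1 and 0.824 in replicate 2, were centred at +228 and +8 bp. Lhx1 (peak height 0.629) and Lhx9 (0.730), the latter a regulator of gonad formation, had a promoter peak in replicate 2 alone. The highest Lhx1 promoter peak was broad, with its centre 1614 bp into the gene. Lower ones in replicate 2 included peaks of 0.433 and 0.425 centred at -29 and +131 bp. Lhx2, Lhx4, Lhx5 and Lhx6, which act in forebrain, eye, pituitary and interneurons, had none. Lhx1 had the highest mean distal density of the family, from 0.442 in replicate 1 and 2.65 in replicate 2, and Lhx6 the lowest, from 0.488 and 0.163.

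In the Nkx family the open promoters were those of Nkx6-1, Nkx6-2 and Nkx3-2. Nkx6-1 (ENSMUSG00000035187.10, chr5:101658139-101664996), which acts in beta cells and motor neurons, had heights of 1.77 and 1.28 (1.53 ± 0.34) in a peak centred at -455 and -433 bp from its start. Nkx6-2, which acts in motor neurons and oligodendrocytes, had 0.853 and 0.611, and Nkx3-2, a regulator of cartilage, had 0.474 and 0.527. Nkx2-2, a regulator of ventral neural tube and islets, had a peak of 0.553 in replicate 1 alone. Nkx2-3, a regulator of gut mesenchyme and spleen, had one of 0.518 in replicate 2 alone. Nkx2-1, of lung and thyroid, and Nkx2-5, of the heart, had none. Nkx6-1 had the highest mean distal density of the family, 2.01 and 0.223, and Nkx2-5 the lowest, 0.226 in both animals, from 1 peak in each that the other animal did not share.

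At no Pax gene did both animals have a promoter peak. Pax3 and Pax7, which act in neural crest and muscle progenitors, had low peaks of 0.505 and 0.474 in replicate 1 alone, and Pax5, the B-cell regulator, had one of 0.399 in replicate 2 alone. Pax1, Pax2, Pax4, Pax6, Pax8 and Pax9 had none. Pax2 and Pax8 build the kidney and its ducts. On the mean of both animals Pax5 had the most shared distal peaks of all 45 genes, 10 of 11 in replicate 1 and 11 of 19 in replicate 2, along the longest gene body of the set (chr4:44524757-44710487). Its tallest peak lay at an inner start, chr4:44704421-44704540, with heights of 2.89 and 2.23. Pax4 had the highest mean density of the family, 1.33 and 0.666, with 3 of 6 and 2 of 3 distal peaks at starts of other genes. Pax1 had the lowest, with 0 and 1 distal peaks. Of the Otx genes, Otx1 had promoter heights of 1.19 and 1.15 and the highest distal density of the set in replicate 1, 4.34 against 1.08 in replicate 2. Otx2, which forms the head and retina, had no promoter peak and densities of 0.369 and 0.739.

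Across the set, distal density was near that of other genes. Its median was 0.488 in replicate 1 and 0.739 in replicate 2 (0.61 ± 0.18), beside 0.605 and 0.507 for all protein-coding genes. The median distal height was 0.821 and 0.607, beside 0.971 and 0.858. The genes not open in both animals had a median density of 0.466 and 0.532, while all protein-coding genes not open in both had 0.250 and 0.234. The genes whose distal peaks recurred most often after Pax5 were Pitx1, with 11 of 13 and 8 of 11 shared, Six5 with 10 of 12 and 9 of 11, and Pitx3. Lhx4 shared 6 of its 8 distal peaks in replicate 1 and 6 of 14 in replicate 2, and Lhx8 shared 6 of 7 and 6 of 12. The Lhx8 distal peaks included chr3:154329361-154329600 in replicate 1 and chr3:154329261-154329600 in replicate 2, which lay inside its promoter peaks. The plot of distal densities shows how uneven the set was.

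**Figure D2:**
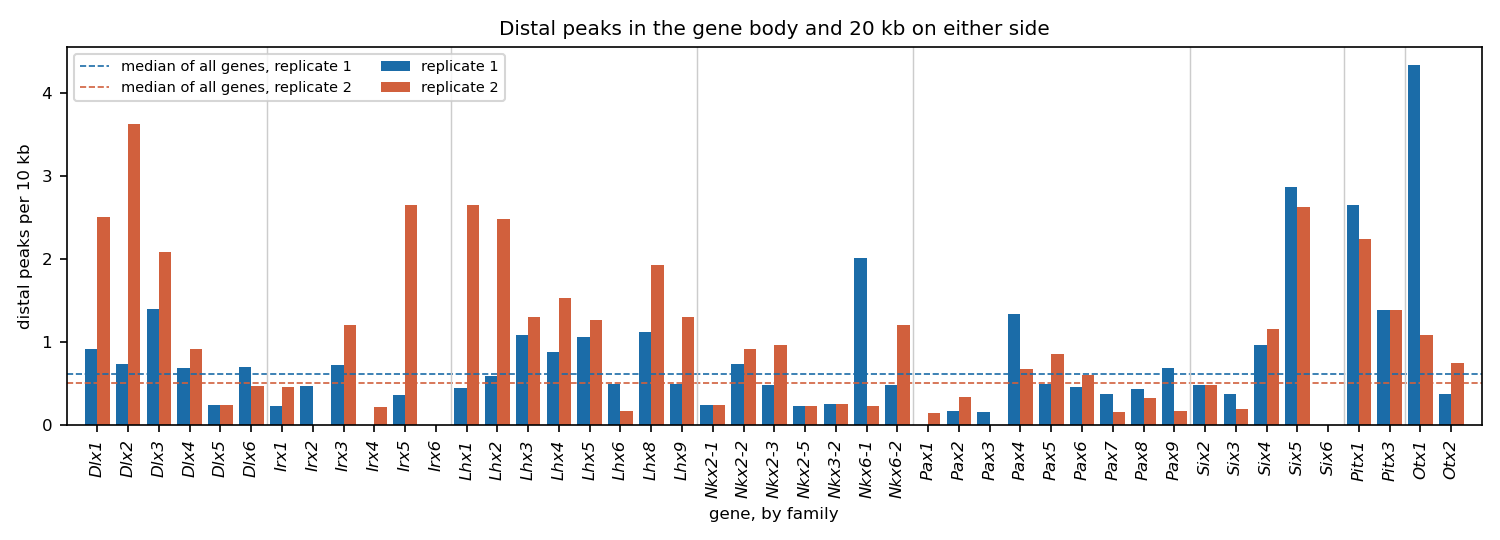
Distal peaks per 10 kb of domain for each of the 45 genes, by family, with replicate 1 in blue and replicate 2 in orange. Dashed lines are the medians of all protein-coding genes, 0.605 and 0.507, and Otx1 and Nkx6-1 are far higher in replicate 1 while Dlx2, Irx5, Lhx1 and Lhx2 are far higher in replicate 2.

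Counted once each, the peaks in these domains numbered 220 in replicate 1 and 283 in replicate 2. The 45 domains merge into 42 non-overlapping stretches of 2711.2 kb, because each of the 3 Dlx pairs shares its surroundings. Own promoters held 45 and 61 of the peaks, inner starts 27 and 48, starts of other genes 32 and 38, exons 29 and 27, introns 41 and 60 and intergenic DNA 46 and 49. The class with the highest median was the starts of other genes, 1.13 and 0.794. Own promoter peaks had medians of 0.797 and 0.629, little above the 0.758 and 0.603 of intergenic peaks. Among all promoter peaks of the genome the medians were 1.87 and 1.69.

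**Figure D3:**
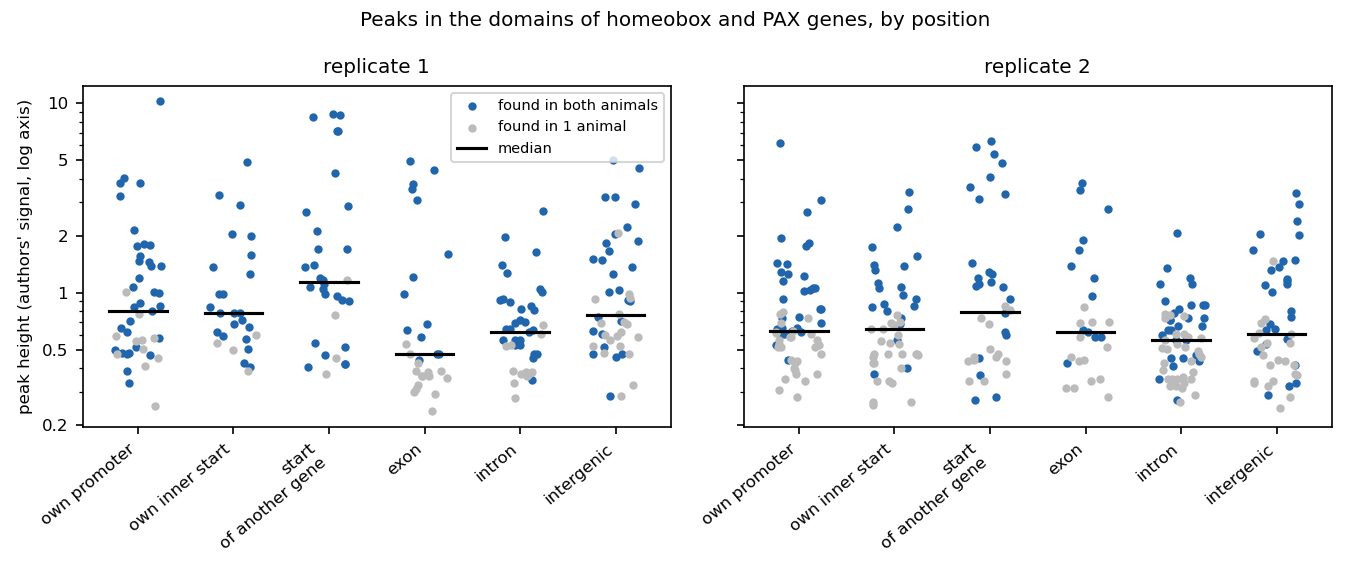
Height of every peak in the 45 domains (authors' signal, log axis) by position, in replicate 1 (left) and replicate 2 (right). Blue points are peaks found in both animals and grey points peaks found in 1, and the bar is the class median, highest at starts of other genes in both panels (1.13 and 0.794).

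The tall distal peaks were not confined to genes with open promoters. Of the 12 highest distal peaks shared by both animals and away from starts of other genes, 7 belonged to genes without a promoter peak in both animals. Among the 45 genes 19 (42.2%) had one in both, so the count of 7 was near the share of the set. The intergenic peak centred at -4090 bp from the start of Nkx3-2 reached 5.01 and 3.35, against 0.474 and 0.527 for the promoter peak of that gene. A peak in exon sequence at +16352 bp in the Nkx2-2 domain had a mean height of 3.78 ± 0.02, and one at +9212 bp in the Lhx5 domain reached 4.44 and 2.75. The CTCF core motif was present in 5 of these 12 peaks, near Pitx3, Nkx2-3, Lhx5, Dlx3 and Nkx2-1, of which 3 are printed above. The peaks were picked for height, and the share among distal peaks of like height elsewhere in the genome was not computed. For the Nkx2-3 peak the heights were 4.57 and 2.95, for Dlx3 3.21 and 2.38, and for Nkx2-1 3.09 and 1.89. The Nkx2-1 peak was the only peak in its domain in either animal. Over all distal peaks of the set the motif was present in 9.71% and 7.21% of the 150 bp windows around peak centres, against 8.16% and 8.53% for all peaks, so the animals lay on opposite sides of the general share.

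The GC box, the site of Sp1-type factors, was found in 33.3% and 44.3% of the own promoter peaks and in 24.6% and 20.3% of distal peaks of the set, against 16.8% and 16.0% of all peaks. The AP-1 motif TGANTCA was found in 0 of 45 and 0 of 61 promoter peaks and in 6.86% and 4.50% of distal peaks, against 9.74% and 7.61% of all peaks. The homeodomain motif TAATTA was in 1.14% and 1.80% of distal peaks, against 1.20% and 1.35%. Most of all peaks, 94287 of 117773 in replicate 1 and 80376 of 102671 in replicate 2, lay outside promoter windows of protein-coding genes. Motif shares over all promoter peaks or all distal peaks were not computed. The part of peak position and base composition in these shares was not tested.

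The open sites of these genes recurred less evenly between the animals than open sites elsewhere. Of the 220 peaks in replicate 1, 70.5% overlapped a peak in replicate 2, close to the 71.5% of all peaks. Of the 283 peaks in replicate 2, 51.9% overlapped a peak in replicate 1, against 80.7% of all peaks. Peaks found in 1 animal were low, with medians of 0.482 and 0.476, while shared peaks had medians of 0.979 and 0.926. Peaks found in 1 animal lay within 10 kb of the start of their gene in 75.4% and 76.5% of cases, and shared peaks in 62.6% and 59.9%. By CpG ratio, 26 of 65 and 73 of 136 peaks found in 1 animal were CpG-rich, as were 83 of 155 and 79 of 147 shared peaks, against 21.8% and 23.2% of all peaks of each animal. Over the 155 peaks of replicate 1 with a partner, the heights were ordered alike (Spearman coefficient 0.854 across peaks, which share their libraries and are not replicates), and the log2 difference had a median of -0.17 and an SD of 0.50.

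Footprints recurred less than peaks. A footprint of the same animal touched 80.5% of the peaks in replicate 1 and 66.4% in replicate 2, against 81.0% and 74.9% of all peaks. Of 443 footprints in the peaks of replicate 1, 40.2% overlapped one in replicate 2, and of 509 in replicate 2, 35.8% overlapped one in replicate 1. Over the footprints in all peaks of each animal these shares were 45.05% and 54.4%. The footprints carry a single threshold, a false discovery rate of 0.01, and could not be ranked.

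The animals differed at many of these genes in how much sequence was open. Accessible bases were counted as those the authors list at a false discovery rate of up to 0.05 for the local cut rate. This measure was taken up after the peak counts had been seen to differ. Between the animals the accessible bases of 22 of the 45 genes (48.9%) differed by more than 2-fold, with 0.1 kb added to each value, compared with 4.45% of all protein-coding genes. Among genes whose mean accessible length lay between the quartiles of the set, 0.507 to 2.701 kb, it was 11 of 23 (47.8%) against 2.89%. The 22 genes lie in 21 separate stretches, since Dlx1 and Dlx2 share one. With 1 kb added, which damps differences between short lengths, it was 11 genes (24.4%) against 0.447% of all genes.

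The differences ran both ways. Accessible bases were more than 2-fold higher in replicate 2 at 16 genes (2.13% of all genes) and in replicate 1 at 6 (2.32% of all genes). Irx5 had 1.84 kb in replicate 1 and 8.85 kb in replicate 2, with 4 and 19 peaks. Lhx1 had 1.37 and 6.40 kb, with 2 and 19 peaks. Lhx2 had 1.09 and 4.26 kb, with 4 and 17 peaks. The shared domain of Dlx1 and Dlx2 had 0.946 and 4.46 kb, with 4 and 15 peaks. In the Irx5, Lhx1 and Lhx2 domains the tallest peaks were present in both animals. In the Dlx1 and Dlx2 domain a peak of 2.07 in replicate 1 had no partner. The added peaks of replicate 2 were low and spread over the gene body and its surroundings, as the maps of peaks along the genes show for Irx5 and Lhx2.

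The other genes more than 2-fold higher in replicate 2 were Dlx3, Irx1, Irx4, Lhx4, Lhx8, Lhx9, Nkx6-2, Pax2, Pax5, Pax6 and Six2. Otx1 ran the other way, with 8.82 kb in replicate 1 and 2.08 kb in replicate 2, from 23 and 9 peaks. Nkx6-1 had 4.03 and 0.478 kb, from 12 and 2 peaks. Pax3 had 0.681 kb in replicate 1 and was listed at 0 in replicate 2. Irx2, Lhx6 and Pax9 were also more than 2-fold higher in replicate 1. The 8 genes with the highest promoters included both kinds. Irx5 and Nkx6-1 were among the most different genes, as given above, and Irx3 had 1.40 and 2.78 kb. Dlx4 had 1.57 and 2.14 kb, Six5 had 5.49 and 5.56 kb, Six4 3.62 and 3.84 kb, Pitx3 4.90 and 4.29 kb and Lhx3 1.76 and 2.08 kb.

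**Figure D4:**
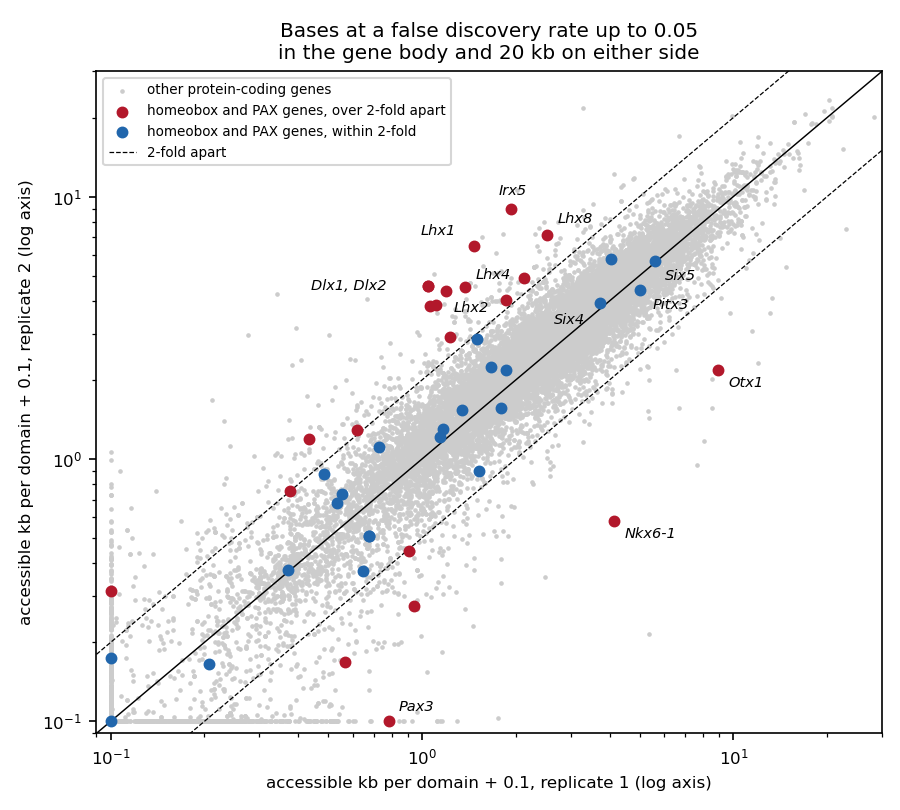
Accessible kb per domain plus 0.1 in replicate 1 (x) and replicate 2 (y), both on log axes, for the 45 genes (red where more than 2-fold apart, blue otherwise) and all other protein-coding genes (grey). The solid line is equality and the dashed lines are 2-fold, and 22 of the 45 genes but 4.45% of all genes lie outside them.

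**Figure D5:**
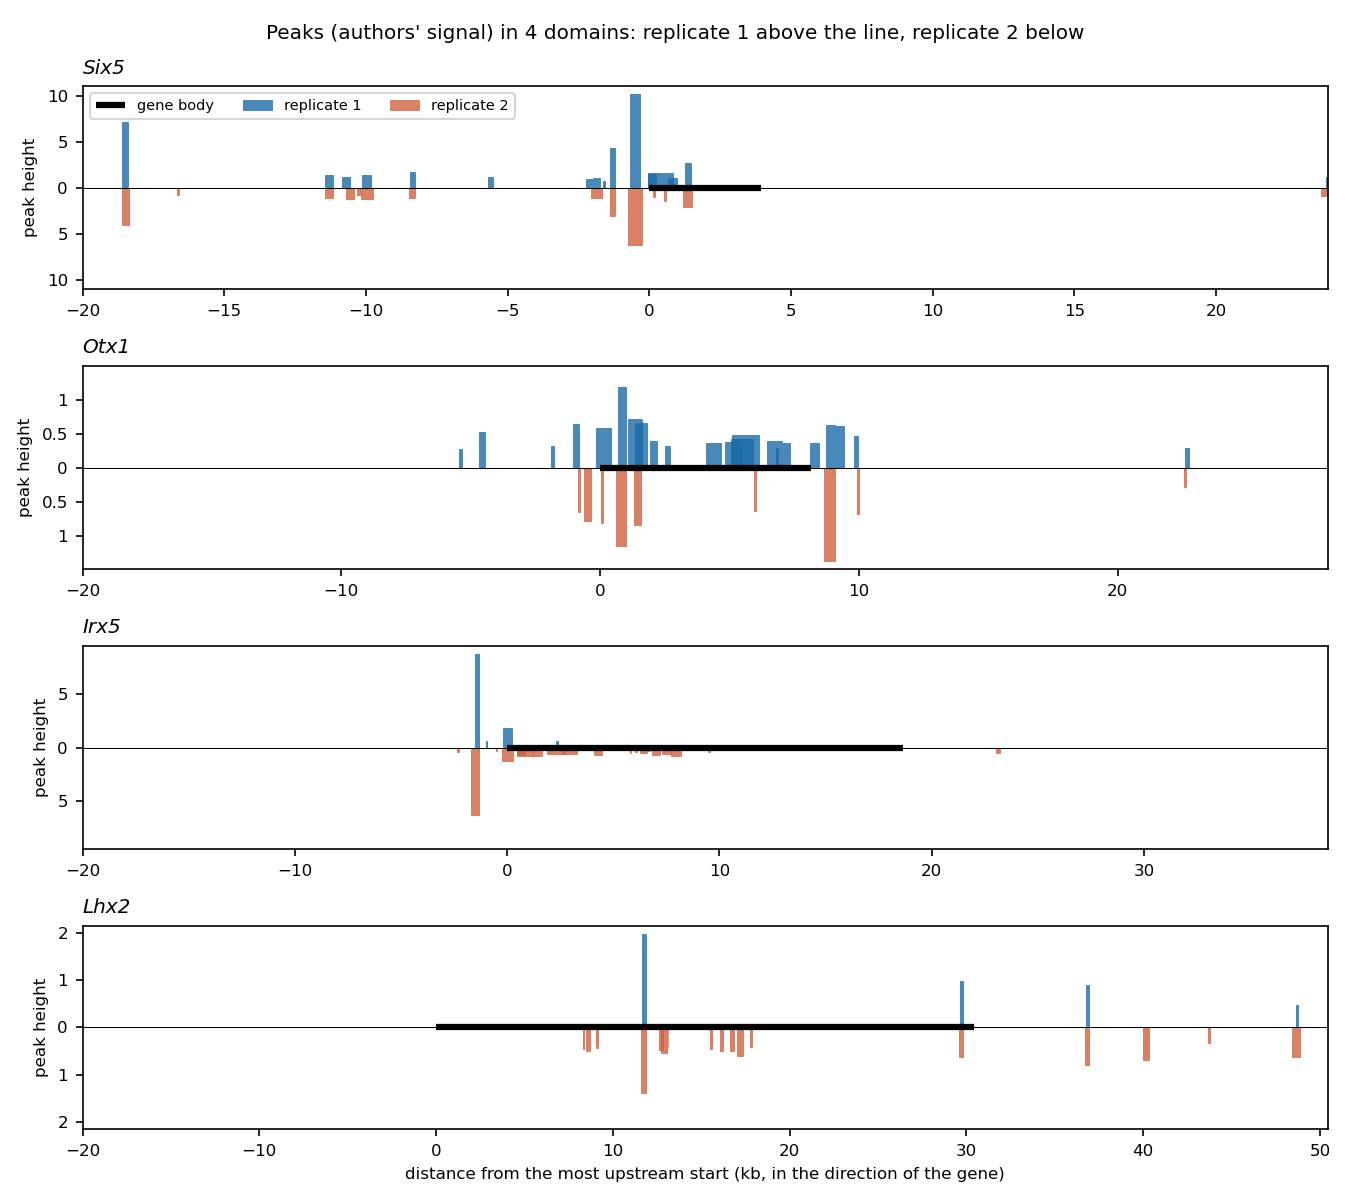
Peaks along the domains of Six5, Otx1, Irx5 and Lhx2, as distance from the most upstream start (kb, in the direction of the gene) against peak height (authors' signal), with replicate 1 above and replicate 2 below the line and the gene body as a black bar. Six5 looks alike in both animals, Otx1 has 23 peaks against 9, and Irx5 and Lhx2 have 4 peaks each against 19 and 17.

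The median log2 difference over all protein-coding genes, replicate 2 minus replicate 1, was 0.04, and over the 45 genes 0.42. Both animals have the same sex, age, strain and tissue label, and nothing in the labels separates them other than the animal and the biosample. Differences in dissection, cell content and library between the animals were not tested. The cell type markers also differed between the animals in part. Urothelial markers summed to 33.2 and 27.2 kb with 1 of 12 genes more than 2-fold apart, smooth muscle markers to 22.9 and 21.6 kb with 0 of 8, fibroblast markers to 13.7 and 17.4 kb with 0 of 5, and neuronal markers to 19.6 and 19.4 kb with 0 of 8. The median distal density of the urothelial markers was 1.32 in replicate 1 and 0.671 in replicate 2, and their median promoter height was 2.62 and 1.499. The median densities of the smooth muscle markers were 1.01 and 0.737, and of the fibroblast markers 1.20 and 1.07. The part of these differences in the result was not tested.

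Related genes outside the set were open more often than the 45 genes. Of 75 other homeobox genes, 43 (57.3%) were open at the promoter in both animals, compared with 62.1% of all protein-coding genes. Their median promoter heights were 1.33 and 1.11, against 4.79 and 3.53 for all genes. Of the 44 with a CpG-rich promoter 31 were open, against 96.0% of CpG-rich promoters of all genes. In accessible bases 18 of the 75 were more than 2-fold apart between the animals, against 4.45% of all genes. Low promoters, the CpG-rich gap and the difference between animals were thus not particular to the 45 genes. Of the 16 genes listed as cofactors of homeodomain factors (the Eya, Dach, Ldb, Lmo and Tle genes), 14 were open in both animals and 2 were more than 2-fold apart.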

How the data were processed

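Per the labels, all coordinates are on mm10. The authors deposited 2 peak lists per animal, footprints, and single bases with a false discovery rate for their cut rate. The height of a peak is the signal value in the deposited list. The deposited p-value type values are false discovery rates, up to 0.05 for bases and 0.01 for footprints. How the signal was scaled, and which aligner and callers were used, is not given in the sources used here. Each animal was called on its own, per the deposited description of each sample.

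The larger list, column 7, was used. Genes and starts came from GENCODE M21 and sequence from RefSeq GRCm38.p6, with all peaks inside its chromosomes. A peak touched a window when it shared at least 1 bp. Both means called in each animal. Peaks can overlap or lie inside one another within a list, so lengths were merged. Counts, densities and shared shares took each listed peak separately, also a distal peak lying inside a promoter peak. Python 3.11.15, numpy 2.4.6, pandas 2.3.3, pysam 0.24.0, samtools 1.23.1, scipy 1.17.1 and matplotlib 3.10.9 were used, and the counting was tested on simulated peaks. Columns of samples outside the series numbered 0.

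The genes, families and marker lists were chosen with earlier results of these data known. Values are given for the 8 highest promoters, genes with a promoter peak in 1 animal, the densest and sparsest gene of each family, the 6 that had most distal peaks in common between animals and the 5 with the largest difference in peaks. Further genes were named after their values were seen, among them the tallest distal peaks. With 2 animals of 1 group no test was made. Alternatives varied the peak list, the windows, the start, the overlap and the thresholds.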

Additional observations from a re-analysis of the deposited data

How the results depend on the processing

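With the authors' smaller list, 10 genes (against 57.5% of all genes) were open at the promoter in both animals, the median distal density was 0.280, the median promoter height 1.56 and the median distal height 1.29. With the higher 50% of the peaks these were 12 (against 55.7% of all genes), 0.234, 1.61 and 1.505, and 79.5% of the peaks were shared. Any annotated start gave 29 genes (against 66.8% of all genes). Without replicate 1 or replicate 2 the open genes numbered 23 to 24, the density was 0.488 to 0.739, the promoter height 0.837 to 1.19, the distal height 0.607 to 0.821 and the share of peaks with a footprint 66.4% to 80.5%. The following alternatives were chosen after seeing the data. Genes more than 2-fold apart numbered 17 at a false discovery rate up to 0.001 (4.80% of all genes), 20 by merged peak length (5.81% of all genes) and 21 relative to the median of all genes, but 11 with a pseudocount of 1 kb (0.447% of all genes). CpG-rich promoters were open in 83.3% of cases at a ratio of at least 0.7. Of the values that a setting could move, 36 stayed within a limit and 12 moved beyond it. The limit was the spread between animals, or 1.5 times for counts. For the share of open CpG-rich promoters it was a binomial confidence interval, which treats genes as independent draws. A further 11 could not move, such as the shared share under another promoter window. The cause was not tested. The threshold at which the lists were called is not given in the sources used here, which limits every call of an absent peak. No paired analysis was possible because the animals form 1 group and share no replicate numbers across groups.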
